A study of Mus musculus with 42 samples.

Results

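The genes described here encode, for the most part, the core of the spliceosome and the RNA-binding proteins that steer it. They are the 80 genes whose names mark them as SR proteins (the Srsf genes with Tra2a and Tra2b), hnRNP proteins, Snrp proteins of the small nuclear ribonucleoproteins (snRNPs), SF3A and SF3B subunits, Prp proteins, Lsm proteins or U2AF subunits. Snrpn, Prpf19 and names of pseudogenes marked as such were left out by the naming rule. All 80 were present in both tables of polyA RNA sequencing, among 16345 genes in the table of epiblast-like cell (EpiLC) differentiation and 16753 in that of embryoid body (EB) formation. They comprised 13 SR proteins, 20 hnRNP proteins, 7 Sm core proteins, 4 proteins specific to the U1 or U2 snRNP, 9 SF3A or SF3B subunits, 3 U2AF proteins, 12 Prp proteins, 11 Lsm proteins and Snrpert, which RefSeq lists as a pseudogene.

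The spliceosome removes introns from pre-mRNA. The U1 snRNP recognises the start of the intron, U2AF and the U2 snRNP with its SF3A and SF3B complexes recognise its end and branch site, and the U4/U6.U5 tri-snRNP with Prp proteins completes the catalytic complex. Sm and Lsm proteins form rings on the small nuclear RNAs, SR proteins mostly favour the use of exons they bind, and hnRNP proteins often oppose it. Pluripotent cells are known for high RNA output and for splicing programmes that differ from those of their differentiated descendants.

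The cells were mouse embryonic stem cells (ESCs). KH2-ISY1 is a line in which doxycycline (Dox) induces Flag-tagged ISY1, a spliceosome protein that works with the Prp19 complex, and DGCR8 is the partner of the Drosha nuclease in cutting primary microRNA transcripts. The EpiLC table held 4 libraries of KH2-ISY1 cells with Dox (24, 48, 72 and 96 h in EpiLC medium), 6 of a DGCR8 knockout ESC line, whose labels give no Dox treatment and no parental line (0, 6, 24, 48, 72 and 96 h), 4 of converted ESCs (cESCs) and 10 of KH2-ISY1 cells without Dox (0, 6, 12, 18, 24, 30, 36, 48, 72 and 96 h), with 0 h in 2i/LIF medium. The cESCs had been returned to 2i/LIF without Dox from 24 h or 48 h EpiLCs that had been kept with Dox (2 libraries) or without it (2 libraries). The EB table held 1 library of KH2-ISY1 ESCs in serum/LIF with Dox and 7 without Dox (day 0 in serum/LIF, then EB days 1, 2, 4, 8, 10 and 13). There was 1 library for each condition and time, and tests therefore used the scatter about a smooth course or over paired hours in place of replicate error. No library of cells with Dox but without the ISY1 transgene was analysed, so an effect of Dox and one of ISY1 cannot be told apart. The knockout is another line, so loss of DGCR8 and line differences cannot be told apart.

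Values are normalised read counts, gene read counts that had been divided by 1 size factor per library, and total reads ranged from 5.80 M to 56.02 M per library (M for mega). Dgcr8 stood between 36.8 and 44.5 in the 6 knockout libraries, against 75.2 to 231.0 in KH2 libraries of the same hours. Isy1 stood at 3038.3, 912.3, 1108.6 and 707.7 with Dox at 24, 48, 72 and 96 h, against 422.7, 396.5, 557.5 and 417.9 without it. The ESC genes Pou5f1, Sox2 and Sall4 were detected in all 32 libraries. A lower value in bulk RNA may mean fewer cells of a kind or less RNA per cell, which cannot be told apart.

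The promoters of members to which the results below return are shown for genes that were higher at 6 h (Sf3b3, Sf3a2, Hnrnpa2b1). The promoter of Prpf39 is shown for the called member with the largest fall along the EpiLC course. The promoter of Hnrnph3 is shown for the member with the largest difference in the knockout. Each runs 5′ to 3′ over 300 bases, 250 before and 50 after the gene start in RefSeq, build GRCm38.p6, and the first start listed was taken. They lie at chr8:110846754-110847053 (minus strand), chr10:80798485-80798784 (plus), chr6:51469845-51470144 (minus), chr12:65036084-65036383 (plus) and chr10:63023800-63024099 (minus). Capitals mark CCGGAAG or its reverse complement CTTCCGG, the core bound by ETS-family factors, and CACGTG, the E-box bound by Myc-Max and related factors. Both strands were searched.
Sf3b3: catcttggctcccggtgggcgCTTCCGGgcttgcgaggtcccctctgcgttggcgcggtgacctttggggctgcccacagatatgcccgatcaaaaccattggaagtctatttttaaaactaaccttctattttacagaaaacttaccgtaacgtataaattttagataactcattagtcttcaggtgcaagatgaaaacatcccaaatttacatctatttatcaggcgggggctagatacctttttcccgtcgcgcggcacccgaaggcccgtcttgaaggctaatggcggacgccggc
Sf3a2: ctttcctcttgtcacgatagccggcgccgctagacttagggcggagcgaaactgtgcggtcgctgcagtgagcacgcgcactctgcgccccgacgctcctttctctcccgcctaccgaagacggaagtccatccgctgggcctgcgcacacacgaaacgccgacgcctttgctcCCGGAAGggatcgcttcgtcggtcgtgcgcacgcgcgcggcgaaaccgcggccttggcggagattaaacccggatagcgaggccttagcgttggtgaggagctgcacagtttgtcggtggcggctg
Hnrnpa2b1: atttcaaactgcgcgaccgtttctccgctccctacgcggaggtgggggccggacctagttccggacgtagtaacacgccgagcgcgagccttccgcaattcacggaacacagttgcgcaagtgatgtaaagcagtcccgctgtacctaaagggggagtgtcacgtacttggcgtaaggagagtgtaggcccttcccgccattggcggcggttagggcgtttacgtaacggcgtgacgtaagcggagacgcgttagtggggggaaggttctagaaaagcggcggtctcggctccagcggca
Prpf39: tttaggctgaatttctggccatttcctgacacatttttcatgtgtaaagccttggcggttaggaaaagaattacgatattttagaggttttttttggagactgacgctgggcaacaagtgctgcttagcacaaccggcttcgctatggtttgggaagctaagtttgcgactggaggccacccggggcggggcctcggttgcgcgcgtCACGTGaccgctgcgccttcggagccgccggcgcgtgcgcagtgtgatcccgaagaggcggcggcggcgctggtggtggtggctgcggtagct
Hnrnph3: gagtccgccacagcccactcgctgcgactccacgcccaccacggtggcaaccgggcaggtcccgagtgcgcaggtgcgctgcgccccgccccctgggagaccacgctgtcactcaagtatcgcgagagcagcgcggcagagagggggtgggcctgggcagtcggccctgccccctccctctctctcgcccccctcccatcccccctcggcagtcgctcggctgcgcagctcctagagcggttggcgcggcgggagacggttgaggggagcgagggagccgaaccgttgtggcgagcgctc
Sf3b3 held CTTCCGG 229 bases before its start, Sf3a2 held CCGGAAG 76 bases before, and Prpf39 held CACGTG 43 bases before. Of 67 members with a promoter in the RefSeq table, 20 (29.9%) held CCGGAAG on either strand, against 9.93% of all 27025 genes with a promoter there. CACGTG was found in 9 of the 67 (13.4%), against 8.09% of all genes. These are letter matches, the table includes noncoding genes, and no binding was measured.

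The EpiLC course asked which members change when naive ESCs leave 2i/LIF. A total of 23 members changed along the course and ended higher, and 3 changed and ended lower. The adjusted p of a course is for any change along it. Higher and lower give only the sign of the fitted change between its ends. Of the 23, 19 had their lowest value of the course at 0 h. By role, those ending higher were 5 of 7 Sm core proteins, 8 of 20 hnRNP proteins, 5 of 13 SR proteins, 3 of 9 SF3A and SF3B subunits, 1 of 3 U2AF proteins and 1 of 11 Lsm proteins. No Prp protein and no U1 or U2 specific protein was called higher. Of all 16206 genes tested, 25.4% were called higher and 24.8% lower (limma, adjusted p under 0.05), so the members' share of higher calls (28.7%) was near that of all genes and their share of lower calls (3.75%) was below it. The members' median log2 change between the fitted ends was 0.33, against -0.02 over all genes.

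**Figure D1:**
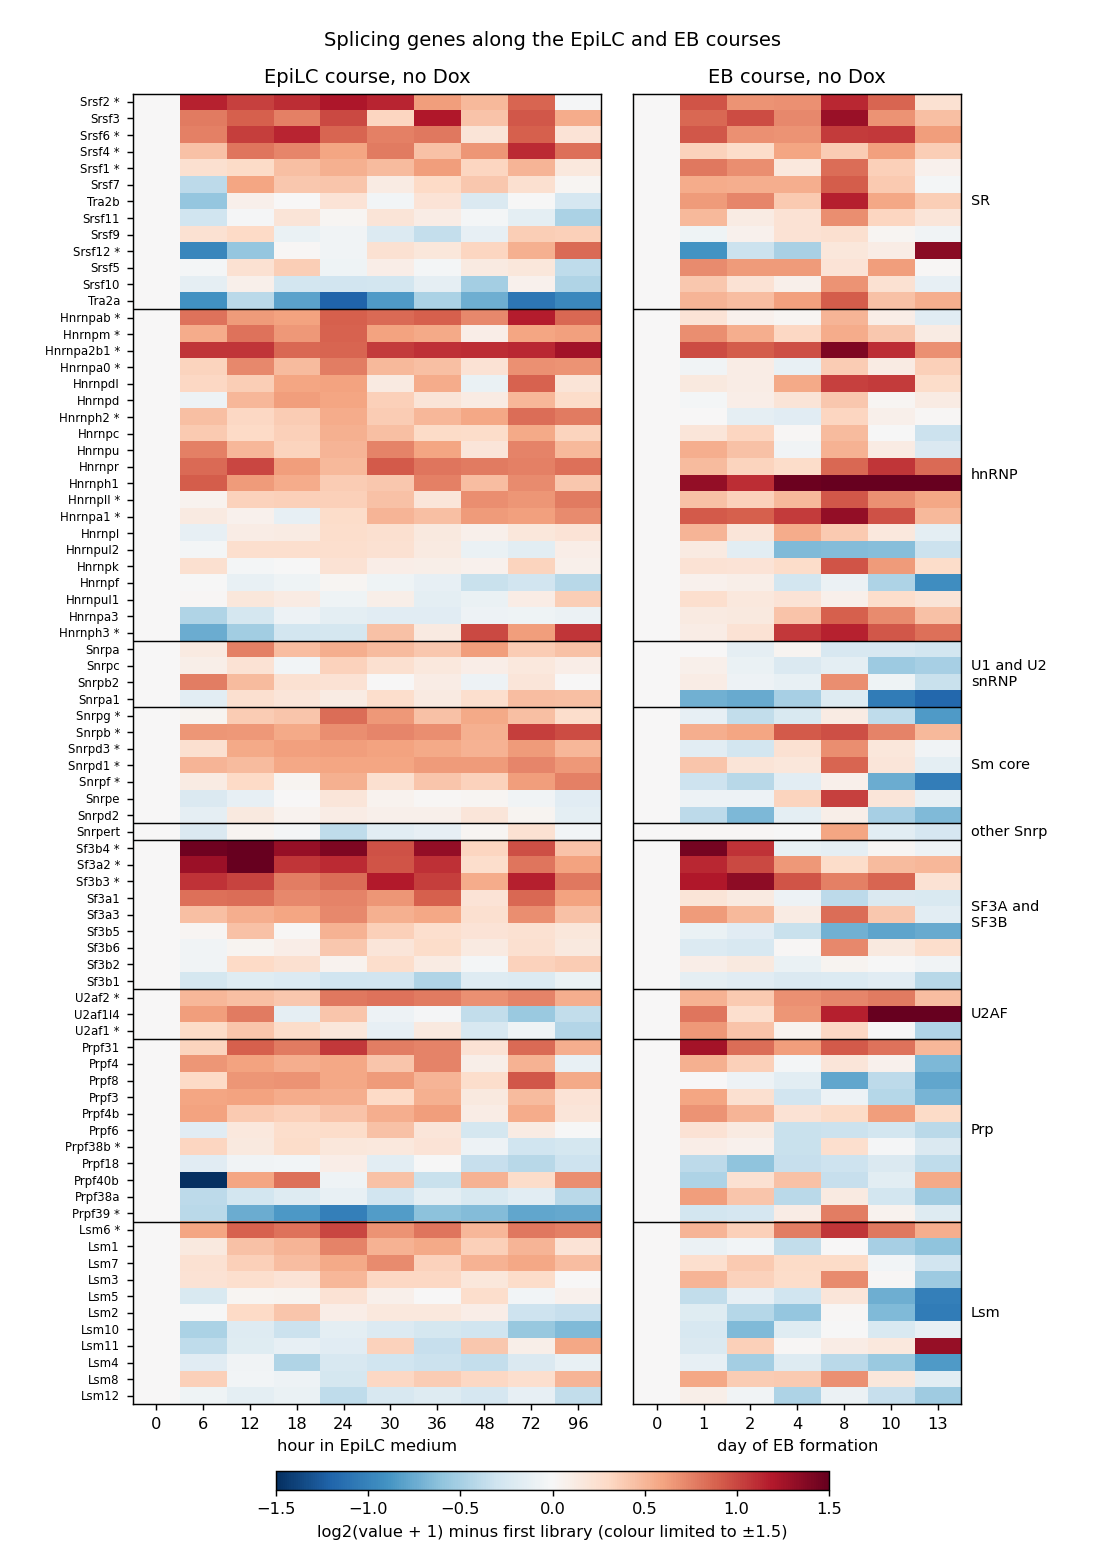
Each row is 1 of 79 splicing genes and each column 1 library, with colour giving log2(value + 1) minus the first library of the course (0 h on the left, day 0 on the right). Asterisks mark the 26 genes called along the EpiLC course. Sf3b4, Sf3a2, Sf3b3, Srsf2 and Hnrnpa2b1 are dark red at 6 h and again at day 1, and Tra2a and Prpf39 are blue through the EpiLC course.

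Hnrnpa2b1, an hnRNP protein that binds nascent transcripts, had the largest rise. It stood at 986.1, 2081.5, 2081.4, 1790.1, 1801.8, 2040.0, 2104.7, 2117.7, 2157.0 and 2366.4 in order of hour, so all later libraries lay above the 0 h library (log2 change between fitted ends 1.202 ± 0.21 SE, adjusted p = 0.0035). Snrpb, which encodes the SmB protein of the Sm ring, stood at 753.9, 1192.3, 1179.6, 1119.8, 1225.5, 1248.2, 1222.5, 1091.2, 1546.0 and 1484.3. It was again lowest at 0 h, and the 72 and 96 h libraries were the highest (1.02 ± 0.19, adjusted p = 0.0059). Among other Sm ring members, Snrpf ended 0.77 ± 0.21 higher and Snrpd1 0.66 ± 0.14 higher, and Snrpd3 and Snrpg were also called.

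Of the SR proteins, Srsf4 ended 1.00 ± 0.24 higher, Srsf12, an SR-like protein that can antagonise other SR proteins, 0.88 ± 0.50, and Srsf6 0.43 ± 0.29. Srsf12 rested on low values, 4.8 to 19.6 over the course. Srsf2, which acts in exon inclusion, was also called although its ends hardly differed (0.17 ± 0.30, adjusted p = 0.007). Its values were 933.0 at 0 h, 2170.0 at its 24 h peak and 919.1 at 96 h, and its gene overlaps Mfsd11 in RefSeq. Tra2a stood at 680.0 at 0 h and 347.2 at 96 h but was not called. Among hnRNP proteins, Hnrnph3 of the G-run binding H/F family ended 0.98 ± 0.31 higher (adjusted p = 0.000932). Like Srsf12 it had its lowest value at 6 h (100.0) and its highest at 96 h (354.5). Hnrnpab ended 0.92 ± 0.23 higher.

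Of the SF3 subunits, 3 of 9 were called. Sf3b4, a subunit that contacts RNA near the branch site, stood at 591.3, 1632.1, 1940.1, 1459.9, 1564.5, 1150.6, 1477.5, 739.8, 1153.0 and 793.6. It was highest at 12 h and close to its 0 h value at 48 and 96 h (0.55 ± 0.34 between the fitted ends, adjusted p = 0.0043). Sf3a2, an SF3A subunit, followed a like course with 361.7 at 0 h, 1043.1 at 12 h and 550.2 at 96 h (0.66 ± 0.29, adjusted p = 0.00464). Sf3b3, the large WD40-type scaffold of SF3B, had 3288.7 at 0 h and between 4849.6 and 7519.4 later (0.85 ± 0.30, adjusted p = 0.048).

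At the 3′ splice site, the fitted changes of U2af2 and U2af1 between the ends had opposite signs. Both genes lay above their 0 h value at 6 and 24 h, where U2af2 stood at 822.6 and 1007.3, against 580.0 at 0 h. U2af2, which binds the polypyrimidine tract, ended 0.54 ± 0.18 higher (adjusted p = 0.0113), and U2af1, which binds the AG at the end of the intron, ended lower by a log2 change of -0.34 ± 0.20 (adjusted p = 0.0165). U2af1 stood at 983.5, 1204.2, 1307.8, 1186.0, 1103.6, 905.9, 1092.9, 831.9, 940.0 and 727.7, so it first lay above and later below its 0 h value. Among Prp proteins, Prpf39, a U1-associated factor, fell by 0.83 ± 0.21 (adjusted p = 0.0109). Its values were 559.1, 423.2, 332.9, 308.1, 273.6, 311.8, 364.5, 354.9, 325.5 and 327.2, all below the 0 h library. Prpf38b ended at -0.34 ± 0.19 (adjusted p = 0.026). Among Lsm proteins, Lsm6, a subunit shared by the nuclear U6 ring and the cytoplasmic decay ring, ended 0.81 ± 0.20 higher.

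Much of this course rests on its 0 h library. Without it 5 members were called higher and 7 lower, 4 and 2 of them the same as above, and Sf3b3, Sf3a2, Sf3b4 and Srsf6 had a fitted change below 0. Without the 12 h library the counts were 14 and 3, without 6 h 22 and 5, without 48 h 27 and 6, without 72 h 20 and 5, and without 96 h 19 and 1. A straight line in place of the curve called 11 higher and 1 lower. The shares of all genes moved too: 22.1% were called higher and 20.9% lower without 0 h, 19.3% and 18.3% without 12 h, 21.0% and 19.9% without 96 h, and 11.7% and 11.6% with the straight line.

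Other splicing genes were read from lists of related proteins, with direction again the sign of the fitted change between the ends. That change was smaller than its SE for some called genes. Examples are Sugp1 (0.11 ± 0.23), counted as higher, and Celf2 (-0.02 ± 0.7) and Gemin6 (-0.08 ± 0.195), counted as lower. Of 33 other snRNP and spliceosome proteins, 12 ended higher and 1 lower, led by Dhx38, a helicase of the second catalytic step (1.14 ± 0.27), and Txnl4a of the tri-snRNP (0.98 ± 0.23), against Dhx16 (-0.44 ± 0.22). Of 37 other splicing regulators, 4 ended higher and 5 lower, among them the epithelial regulator Esrp1 (3.02 ± 0.63) and Khdrbs3 (1.71 ± 0.23), against Rbm5 (-1.05 ± 0.24) and Ptbp3 (-0.85 ± 0.22). Of 17 snRNP assembly factors, 5 ended higher and 3 lower. Gemin5 (1.13 ± 0.19) and Gemin4 (1.04 ± 0.22) of the SMN complex ended higher, while Coil, the marker protein of Cajal bodies (-1.57 ± 0.30), and Gemin2 (-1.48 ± 0.24) ended lower. Of 9 minor spliceosome proteins, 2 ended higher and 1 lower (Zcrb1 at 0.80 ± 0.35 and Pdcd7 at 0.16 ± 0.19, Zmat5 at -1.40 ± 0.32). Of 7 SR protein kinases, Srpk2 was called (0.46 ± 0.31). Over all genes, 25.4% were called higher and 24.8% lower. The shares called higher and lower were 36.4% and 3.03% of other snRNP and spliceosome proteins, and 10.8% and 13.5% of other regulators. They were 29.4% and 17.6% of assembly factors, and 22.2% and 11.1% of minor spliceosome proteins. The shares of higher calls of these last 2 lists were near that of all genes.

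The first step of this course could be set beside the first step of the EB course, which used other libraries, another medium and a separately normalised table. At 6 h against 0 h, 19 members were at least 1.5-fold higher and 4 at least 1.5-fold lower, while 19.6% of all genes were higher and 24.9% lower by that measure. At EB day 1 against day 0, 20 were higher and 2 lower, against 15.5% and 24.2% of all genes. The lists of higher members shared 11 genes, 57.9% of the EpiLC list and 55.0% of the EB list: Hnrnpa2b1, Hnrnph1, Prpf3, Prpf4b, Sf3a2, Sf3b3, Sf3b4, Srsf2, Srsf3, Srsf6 and U2af1l4. Of all 15224 genes compared in both tables, 1016 were in both lists, 34.8% of the 2922 of the EpiLC step and 43.2% of the 2350 of the EB step. The day 0 library is also the no-Dox partner of the serum/LIF library with Dox. In that library of ESCs, Srsf1, Srsf2, Srsf3, Hnrnph1 and Tra2b were at least 1.5-fold above day 0 too. The rest of the 20 were not. The median log2 difference of SR proteins from day 0 was 0.498 there, against 0.557 at EB day 1. The part of the day 0 library in the EB step was not tested. Sf3b4 stood at 1632.1 at 6 h, against 591.3 at 0 h, a ratio of 2.76 (exact 95% interval 2.54 to 3.01), and at 1922.67 at day 1, against 708.41 at day 0, a ratio of 2.71 (2.61 to 2.82). Sf3b3 had ratios of 2.13 (2.05 to 2.21) and 2.30 (2.26 to 2.35), and Sf3a2 of 2.44 (2.19 to 2.73) and 2.19 (2.07 to 2.31). These intervals cover counting error in single libraries only and are no test of the conditions. Tra2a, an activator of exon inclusion, went apart: it stood at 361.3 at 6 h, against 680.0 at 0 h, and at 427.71 at day 1, against 301.14 at day 0.

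**Figure D2:**
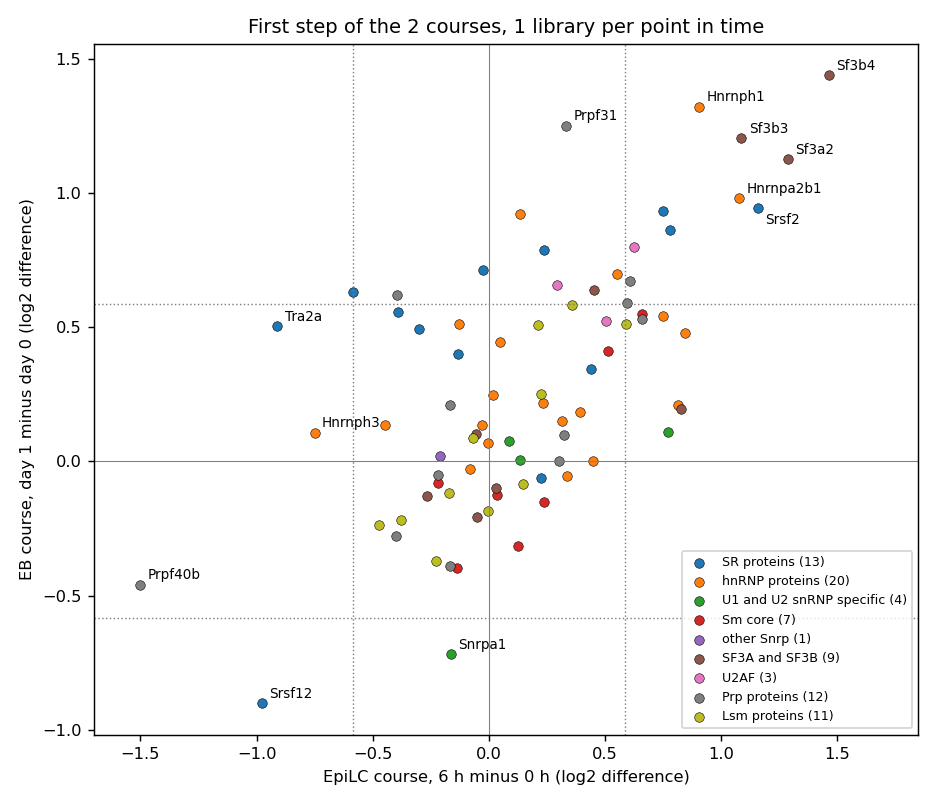
Each point is 1 splicing gene, with the log2 difference of 6 h minus 0 h of the EpiLC course across and of day 1 minus day 0 of the EB course upward, 1 library at each time. Dotted lines mark 1.5-fold. The upper right corner holds the 11 genes past 1.5-fold in both, led by Sf3b4 with ratios of 2.76 and 2.71.

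Along the EB course the members' median log2 difference from day 0 was 0.21 at day 1, 0.39 at day 8 and -0.09 at day 13. At day 13 against day 1, 57 of the 80 were lower and 28 were at least 1.5-fold lower and 5 higher, by which measure 26.3% of all genes were lower and 38.1% higher, and the median log2 difference was -0.42 for members and 0.15 for all genes. Over the whole course 3 members changed and ended higher and 1 ended lower, against 17.3% and 9.61% of 16753 genes tested. Hnrnph1, a G-run binding hnRNP protein, stood at 338.64, 848.10, 732.00, 940.63, 1192.94, 1370.00 and 955.56 on days 0, 1, 2, 4, 8, 10 and 13. All later libraries lay above the day 0 value (log2 change 1.62 ± 0.30, adjusted p = 0.0136). The serum/LIF library with Dox, which is not part of this course, also lay at least 1.5-fold above that day 0 value. Hnrnpa1, which promotes exon skipping, stood at 2731.14, 5174.67, 5079.11, 5668.75, 6794.71, 5277.22 and 3840.00 (0.65 ± 0.28, adjusted p = 0.0462). Srsf12 stood at 30.23, 15.71, 24.00, 21.25, 34.12, 32.78 and 78.89, high at day 13 alone (1.15 ± 0.46, adjusted p = 0.0478). Sf3b5, a small subunit of SF3B, ended lower and stood at 688.41, 643.24, 611.56, 544.38, 416.47, 396.11 and 408.33 (-0.90 ± 0.23, adjusted p = 0.0443).

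The EB calls were few and moved with single libraries. Higher and lower calls were 2 and 4 without day 0, where Hnrnpa1 had a change of -0.20, 1 and 0 without day 1, day 2 or day 10, 5 and 5 without day 4, 2 and 2 without day 8, and 2 and 0 without day 13. The shares of all genes called higher and lower moved as well, with 22.1% and 12.8% without day 0, 13.0% and 6.47% without day 1, 10.9% and 4.88% without day 2, 20.7% and 12.2% without day 4, 16.5% and 9.03% without day 8, 7.84% and 3.62% without day 10, and 8.12% and 4.62% without day 13. Median-ratio scaling lowered the median change of all genes to -0.01, against 0.12 as deposited, and left 1 member higher and 1 lower. Neural markers (Sox1, Pax6, Tubb3) summed to 316.4 at day 0 and 9150.6 at day 13, and fibroblast markers (Col1a1, Col1a2, Thy1) to 179.3 and 7680.0. Their part in the members' course was not tested. Other splicing regulators that ended higher were 6 of 37, led by the neuronal regulators Srrm4 (7.43 ± 0.86) and Ptbp2 (4.52 ± 0.32), and none ended lower. Of 17 assembly factors 4 ended lower, led by Gemin6 (-1.41 ± 0.41) and Snupn (-1.27 ± 0.31), and of 33 other spliceosome proteins Ddx39b ended higher (1.02 ± 0.26) and Dhx16 lower (-1.63 ± 0.34). No minor spliceosome protein and no SR protein kinase was called, with 1 and 0 at an unadjusted p under 0.05. Over all 16753 genes, 17.3% were called higher and 9.61% lower, and 7033 had an unadjusted p under 0.05. The regulators' share of higher calls (16.2%) was near that of all genes. Lower calls made up 23.5% of assembly factors.

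With Dox the members lay slightly below their no-Dox partners at all 4 hours. Relative to no Dox, 65 members were lower and 15 higher at 24 h, 54 and 26 at 48 h, 75 and 5 at 72 h, and 58 and 22 at 96 h. The members' median log2 difference was -0.08, -0.12, -0.18 and -0.13 in that order, against 0.05, -0.01, -0.04 and -0.04 for all genes. A total of 30 members (37.5%) were lower at every hour, as were 15.0% of all genes, and none was higher at every hour, against 15.9% of all genes. By role, the mean over the 4 hours was below 0 for all 7 Sm core proteins, all 9 SF3A and SF3B subunits, 17 of 20 hnRNP proteins, 10 of 13 SR proteins, 10 of 12 Prp proteins and 10 of 11 Lsm proteins. Over all genes tested, 8369 of 16117 were below 0.

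**Figure D3:**
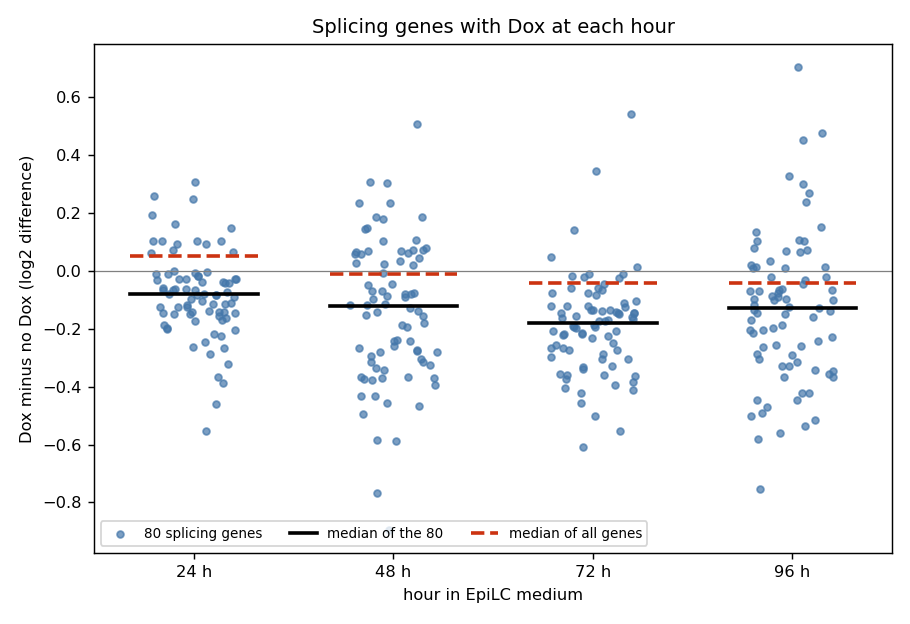
Each point is 1 of the 80 splicing genes, with its log2 difference of Dox minus no Dox at 24, 48, 72 and 96 h, 1 pair of libraries an hour. Black bars are the medians of the 80 (-0.08, -0.12, -0.18 and -0.13) and dashed bars those of all genes (0.05, -0.01, -0.04 and -0.04), which lie above them at each hour.

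Single members hardly passed the test over the 4 pairs. Only Snrpb was called, lower, and no member was called higher, against 1.05% and 1.78% of the 16117 genes tested. Isy1 itself, the induced gene, just missed the threshold in this fit (1.45 ± 0.31, limma adjusted p = 0.0542). Few calls here are therefore no sign that Dox left the members unchanged. At an unadjusted p under 0.05 there were 17 lower and 0 higher of the 80, against 1723 lower and 1959 higher of all 16117 genes. Snrpb stood at 1067.3, 788.6, 1091.4 and 1024.4 with Dox, against 1225.5, 1091.2, 1546.0 and 1484.3 without it, so it was lower in 4 of 4 pairs, while over all hours the groups overlapped slightly (log2 difference -0.43 ± 0.08 SE, limma adjusted p = 0.0465). Snrpb no longer passed without the 48 h, the 72 h or the 96 h pair, without the pairing by hour, without the filter or the intensity trend, and in an edgeR fit of the 24 and 48 h pairs, with adjusted p over the alternatives of 0.0296 to 0.551. Without the 48 h or the 72 h pair, the trend or the pairing no gene at all was called. Without the 24 h pair Snrpb, Snrpd1 and Hnrnpa1 were called lower, with 3.26% of all genes called lower. Snrpd1 stood at 1046.7, 964.0, 973.0 and 853.8 with Dox, against 1172.7, 1208.8, 1288.0 and 1222.1 without, with adjusted p = 0.0623 over all pairs.

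Of the other lists, Snrnp70, the U1-specific 70K protein, fell by 0.38 ± 0.07 with Dox (adjusted p = 0.0435), and Mbnl2, an RNA-binding regulator of developmental splicing, rose by 0.87 ± 0.13 (adjusted p = 0.0345). No minor spliceosome protein, SR protein kinase or assembly factor was called, with 2, 1 and 4 at an unadjusted p under 0.05. Over all 16117 genes, 1.78% were called higher and 1.05% lower, and 3682 had an unadjusted p under 0.05. Naive markers (Klf4, Tbx3, Esrrb, Nr5a2, Tcl1) summed to 1905.5, 1176.5, 727.7 and 404.0 with Dox, against 1159.9, 369.2, 140.0 and 74.4 without. Formative markers (Fgf5, Pou3f1, Dnmt3b, Otx2) summed to 915.0, 1362.3, 1794.3 and 1767.5 with Dox, against 1512.8, 2670.8, 2929.5 and 2602.6 without. The part of these markers in the members' difference was not tested.

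In serum/LIF more members were higher than lower with Dox. In the single pair of libraries there, 56 members were higher and 24 lower with Dox (median log2 difference 0.17, against -0.04 for all genes). None passed 2-fold in either direction, against 1.18% of all genes higher and 8.2% lower. At 1.5-fold, 6 were higher and none lower, against 5.52% and 17.1% of all genes. They were Srsf2 (1822.14 with Dox, against 958.86), Srsf3 (1745.00 against 997.95), Hnrnph1 (530.95 against 338.64), Tra2b (1348.57 against 883.41), Srsf7 (2965.00 against 1951.82) and Srsf1 (1207.86 against 799.77), 5 of them SR proteins. The exact 95% counting interval of the ratio was 1.83 to 1.97 for Srsf2 and 1.45 to 1.58 for Srsf1. The no-Dox library is also the day 0 library of the EB course. Fibroblast markers summed to 61.4 with Dox, against 179.3 without, and heart markers (Tnnt2, Myh6, Myl7) to 21.9 with Dox, where Tnnt2 was at 0, against 56.6 without. At EB day 1 these sums were 21.4 and 20.3. The part of these markers in both comparisons with the day 0 library was not tested. With 1 library each there is no test, and the difference between this pair and the EpiLC pairs was not tested.

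The knockout comparison asked how cells without DGCR8 differ through the same medium changes, and it shares its KH2 libraries of 24 to 96 h with the Dox comparison. A total of 26 members were lower in the knockout line and 6 were higher, against 24.3% and 18.1% of the 16267 genes tested. The members' median log2 difference was -0.17, against -0.08 over all genes. It was not even over the hours. At 0, 6, 24, 48, 72 and 96 h the member median was -0.141, -0.375, -0.338, -0.105, -0.139 and -0.006. For all genes it was -0.121, -0.036, -0.129, -0.108, -0.114 and 0. Members lower in the knockout numbered 54, 67, 63, 47, 52 and 40 of the 80 in that order. By role, 8 of 11 Lsm proteins, 4 of 7 Sm core proteins and 3 of 4 U1 or U2 specific proteins were lower and none of these groups had a higher call. The medians of these groups were -0.50, -0.61 and -0.38. The SF3 subunits divided, with 2 higher and 2 lower of 9, as did SR proteins, with 2 and 2 of 13. Of 20 hnRNP proteins 2 were higher and 5 lower, and of 12 Prp proteins 2 were lower.

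Among the Sm ring, Snrpd1 stood at 553.4, 523.3, 628.7, 934.1, 817.5 and 855.0 in the knockout at 0, 6, 24, 48, 72 and 96 h, against 777.4, 1110.1, 1172.7, 1208.8, 1288.0 and 1222.1 in KH2 (-0.67 ± 0.11 SE, adjusted p = 0.00135). It was lower in 6 of 6 pairs, as were Snrpf (-0.64 ± 0.11), Snrpd2 (-0.64 ± 0.08) and Snrpd3 (-0.61 ± 0.10). Snrpb was not called, with 889.7, 844.3, 1004.2, 1050.9, 1288.7 and 1292.6 in the knockout, against 753.9, 1192.3, 1225.5, 1091.2, 1546.0 and 1484.3 in KH2. Snrpc of the U1 snRNP was lower (-0.55 ± 0.11), as were Snrpa1 of the U2 snRNP (-0.47 ± 0.08) and Snrpa of the U1 snRNP (-0.29 ± 0.10).

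Lsm6 stood at 125.0, 147.1, 181.0, 204.7, 260.0 and 241.3 in the knockout, against 223.5, 337.5, 450.0, 315.9, 386.5 and 378.7 in KH2. It was lower in 6 of 6 pairs (-0.86 ± 0.12, adjusted p = 0.00085). Lsm2, of the same rings, was lower by a like amount (-0.77 ± 0.13), and so was Lsm10, which replaces an Sm protein in the U7 snRNP of histone pre-mRNA processing (-0.64 ± 0.13). Lsm1, Lsm4, Lsm5, Lsm7 and Lsm12 were also lower, with log2 differences between -0.63 and -0.38.

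Within SF3B the subunits moved apart. Sf3b5 stood at 499.4, 447.6, 438.0, 406.5, 415.2 and 447.0 in the knockout, against 700.9, 716.7, 1010.0, 810.6, 822.5 and 786.8 in KH2, with no overlap (-0.86 ± 0.10, adjusted p = 0.000367). Sf3b6, which sits at the branch point adenosine, was also lower (-0.69 ± 0.12), and so was Phf5a, a further small SF3B subunit whose name is outside the rule (-0.95 ± 0.11). Sf3b3 was higher, with 7416.6, 8281.9, 8604.2, 7822.0, 9409.0 and 8136.5 in the knockout, against 3288.7, 6994.0, 5856.4, 4849.6, 7388.0 and 5702.1 in KH2 (0.59 ± 0.12, adjusted p = 0.00433). The widest gap was at 0 h, and at these hours every knockout value lay above every KH2 value. The gene overlaps Cog4 in RefSeq. Sf3b4 was higher too (0.37 ± 0.13, adjusted p = 0.0433), though not at 6 h.

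**Figure D4:**
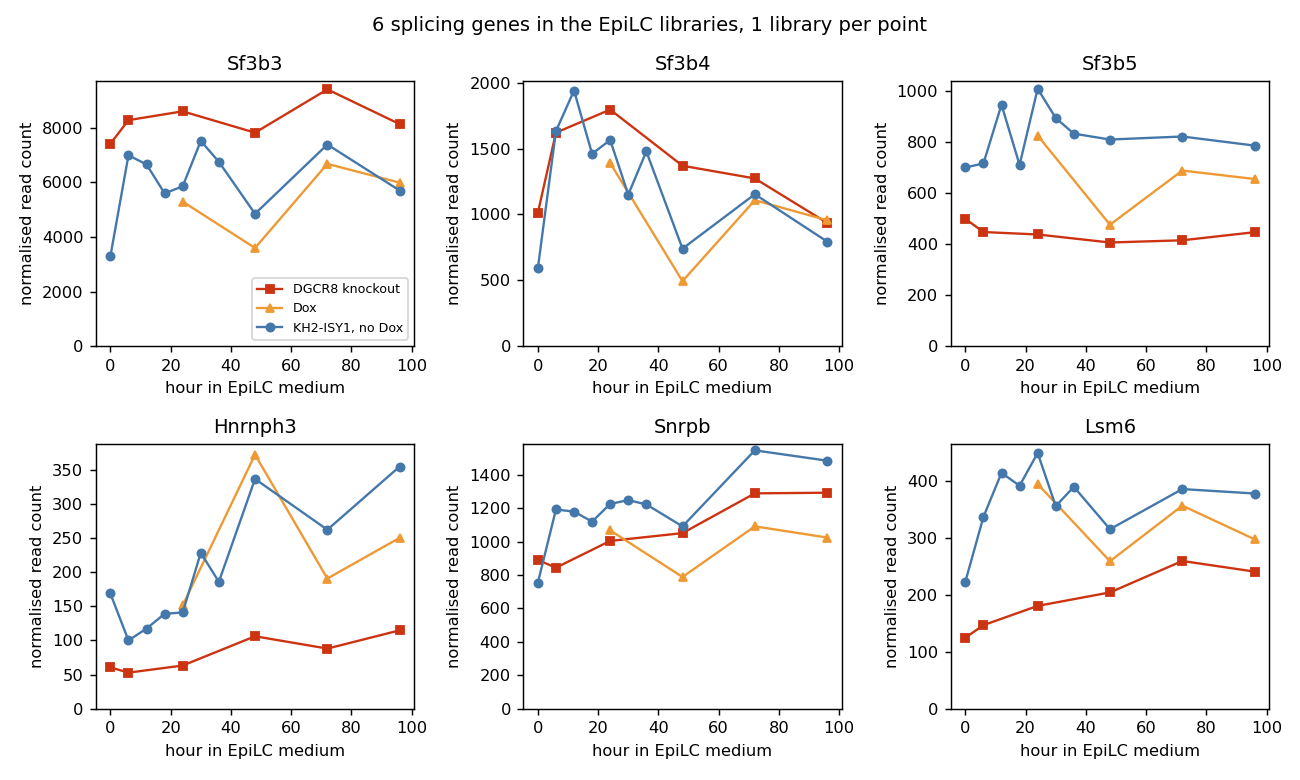
Normalised read counts of 6 members by hour in EpiLC medium, in the DGCR8 knockout (squares), with Dox (triangles) and in KH2-ISY1 without Dox (circles), 1 library per point. Sf3b3 lies above KH2 in the knockout at each shared hour, Sf3b5, Hnrnph3 and Lsm6 lie below it, and Snrpb with Dox lies below its partner at each of the 4 hours.

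The largest difference of any member was that of Hnrnph3. It stood at 60.6, 52.9, 63.3, 106.1, 88.1 and 114.8 in the knockout, against 168.7, 100.0, 140.9, 336.3, 262.0 and 354.5 in KH2. It was lower in 6 of 6 pairs (-1.39 ± 0.13, adjusted p = 0.000131), and it was the only member at least 1.5-fold lower at all 6 hours, as were 3.89% of all genes. Its gene overlaps Rufy2 in RefSeq. Its relative Hnrnph2 was lower (-0.55 ± 0.12), while Hnrnph1 and Hnrnpf of the same H/F family were not called. Among other hnRNP proteins, Hnrnpa3 (-0.46 ± 0.09), Hnrnpa1 and Hnrnpd were lower. Hnrnpul1 (0.36 ± 0.08) and the nuclear scaffold protein Hnrnpu (0.30 ± 0.10) were higher, Hnrnpu not at 6 h.

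Tra2a had the largest rise. It stood at 631.3, 723.8, 604.2, 574.3, 490.0 and 523.4 in the knockout, against 680.0, 361.3, 295.5, 409.7, 321.0 and 347.2 in KH2, higher in 5 of 6 pairs and not at 0 h (0.60 ± 0.14, adjusted p = 0.00927). Srsf6 was higher (0.46 ± 0.14), and Srsf9 (-0.66 ± 0.09) and Srsf11 (-0.38 ± 0.12) were lower. Of the Prp proteins, Prpf38a, needed to activate the assembled spliceosome, was lower (-0.36 ± 0.09). There were 3 higher calls without the 0 h pair, and likewise without the 48, 72 or 96 h pair and with hours not paired. Each time these were Hnrnpul1, Sf3b3 and Tra2a, while Srsf6, Sf3b4 and Hnrnpu lost their call. At 6 h the log2 differences of Srsf6, Sf3b4 and Hnrnpu were -0.205, -0.01 and -0.095, and they were above 0 at the other hours. Lower calls ranged from 21 to 25 over the pairs left out. Of all genes, 14.9% to 16.2% were called higher and 18.8% to 22.7% lower over the pairs left out, and 8.3% and 13.1% with hours not paired.

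**Figure D5:**
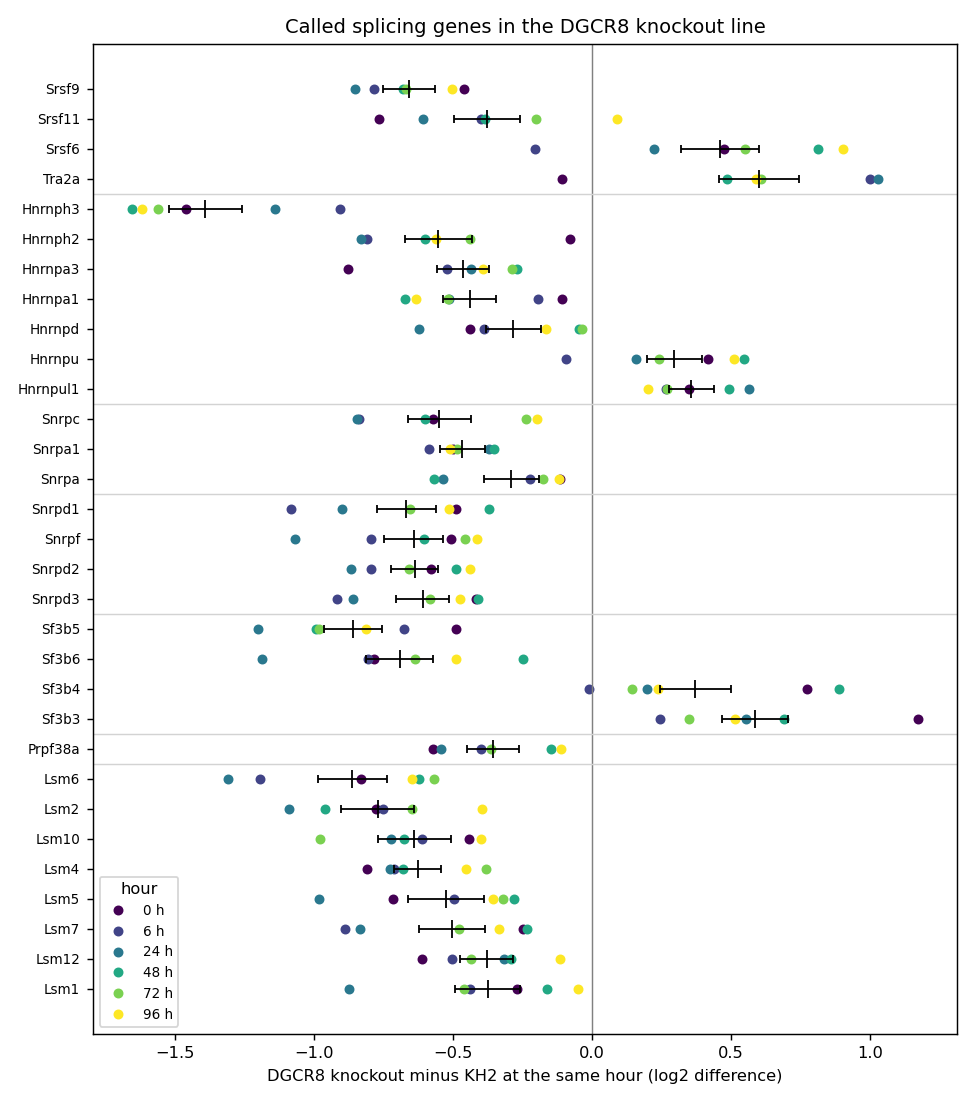
Log2 differences of the DGCR8 knockout minus KH2 for 31 called members, grouped by role. Points are the 6 paired hours and black marks the fitted mean with its SE. Hnrnph3 lies farthest left with a mean of -1.39, and Sf3b3 at 0 h lies farthest right at 1.17.

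These differences went along with a wider pattern. Of 82 cytosolic ribosomal protein genes, 70 were called lower in the knockout and 1 higher, with a median of -0.45. Over genes with a mean of at least 50, those in the shortest 20% by RefSeq gene span had a median of -0.29 and those in the longest 20% of 0.18. The median span was 9.68 kb for members called lower, 13.94 kb for those not called and 19.06 kb for those called higher, and the 14 members among the shortest 20% had a median of -0.37. In other comparisons, the shortest and longest 20% had medians of -0.124 and 0.258 along the EB course and -0.05 and 0.096 along the EpiLC course. With Dox they were -0.035 and 0.042. Ribosomal protein genes had medians of -0.325, -0.338 and 0.023 in that order. The part of gene span in these results was not tested. Naive markers summed to 5985.4, 4378.6, 3147.6, 1047.2, 498.3 and 249.2 in the knockout, against 6285.2, 3026.2, 1159.9, 369.2, 140.0 and 74.4 in KH2, and their part was not tested either. Median-ratio scaling gave 8 members higher and 21 lower, and for all genes 3570 higher and 3121 lower, against 2941 and 3958 as deposited.

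No member's difference between knockout and KH2 changed with hour at the adjusted threshold, against 0.375% of genes whose difference rose and 0.148% whose difference fell. At an unadjusted p under 0.05 there were 5 rising and 1 falling of the 80, against 1318 rising and 1077 falling of all 16267 genes. The fitted slope was above 0 for 57 of the 80 and for 8807 of all genes, with medians of 0.214 and 0.059. In single libraries of the knockout, at 6 h against 0 h, 2 members were at least 1.5-fold higher and 2 lower, against 15.1% and 11.0% of all genes, and the median log2 difference was -0.02, against 0.01 for all genes. The corresponding member median in KH2 was 0.14. This difference of steps rests on 4 libraries and was not tested.

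The other lists are set beside all genes, of which 24.3% were called lower in the knockout and 18.1% higher. Lower calls made up 55.6% of minor spliceosome proteins, 35.3% of assembly factors, 30.3% of other snRNP and spliceosome proteins and 21.6% of regulators. The last 2 shares were near that of all genes. No list had a share of higher calls above 18.1%. Of 9 minor spliceosome proteins 5 were lower and none higher, led by Snrnp25 (-0.87 ± 0.13) and Zcrb1 (-0.76 ± 0.14). Of 33 other snRNP and spliceosome proteins 10 were lower, led by Phf5a and Rbm17 (-0.65 ± 0.08), and 3 higher, led by Sart1 (0.39 ± 0.12) and Ddx42 (0.34 ± 0.08). Of 37 regulators 8 were lower and 3 higher. Taf15 (-1.004 ± 0.12) and Khdrbs3 (-0.97 ± 0.16) were lowest, and Mbnl1 (0.94 ± 0.18) and Pcbp1 (0.61 ± 0.10) highest. Of 17 assembly factors 6 were lower, led by Coil (-0.95 ± 0.13) and Gemin2 (-0.55 ± 0.17), and Gemin7 was higher (0.60 ± 0.18). Of 7 kinases that act on SR proteins, Clk3 was lower (-0.71 ± 0.15) and Dyrk1a higher (0.49 ± 0.08).

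After return of EpiLCs to 2i/LIF, no member was at least 2-fold higher or lower in all 4 cESC libraries than at 0 h, against 0.735% and 4.24% of all genes. At 1.5-fold, Hnrnpr alone was higher in all 4, with 286.0 and 369.4 in cESCs from Dox EpiLCs of 24 and 48 h and 381.7 and 310.0 in those from no-Dox EpiLCs, against 148.7 at 0 h, and none was lower, against 1.91% and 9.31% of all genes. Set against the EpiLCs they came from, Prpf39 was the only member at least 1.5-fold higher in all 4, against 3.4% of all genes. It stood at 514.0 and 716.2 in cESCs from Dox EpiLCs, against 327.1 and 381.6 in those EpiLCs, and at 620.0 and 549.1 in cESCs from no-Dox EpiLCs, against 273.6 and 354.9. A total of 10 members were higher in all 4 by any amount, against 16.6% of all genes. Tra2a was among them, with 493.9 and 839.6 against 337.4 and 388.6, and 904.2 and 586.4 against 295.5 and 409.7. Members lower in all 4 cESCs than in their EpiLCs numbered 18, against 27.8% of all genes, among them Hnrnpa2b1, Sf3b4, Srsf6 and U2af2.

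The cESC library from 24 h no-Dox EpiLCs differed from the others: 14 members were at least 1.5-fold lower there than at 0 h, against 0 or 1 in each of the other 3. By that measure 33.3% of all genes were lower in this library and 19.8%, 23.1% and 20.8% in the others. Sf3b4 stood at 302.5 and Srsf2 at 512.5 in that library, against 680.7 and 1732.5 in cESCs from 24 h Dox EpiLCs. Its naive markers summed to 2020.1, the lowest of the 4, and their part in the members' values was not tested. With 1 library each there is no test of Dox history. In cESCs from 24 h EpiLCs, 25 members were at least 1.5-fold higher and 4 lower with Dox history than without, against 27.6% and 15% of all genes. At 48 h no member differed by 1.5-fold between cESCs with and without Dox history, against 11.2% of all genes higher and 10.8% lower.

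Members can be miscounted where genes overlap or have copies. In RefSeq, 18 of the 80 overlap another protein-coding gene, among them Sf3b3, Srsf2, Hnrnpu, Hnrnpab, Srsf9, Snrpf and Prpf39. The labels name a stranded kit, but how strand and multiply mapped reads were counted is not given in the sources used here. Many members have processed pseudogene copies, and counts per gene do not tell productive transcripts from those with poison exons.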

How the data were processed

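PolyA RNA sequencing values of 32 libraries in 2 tables were analysed; 10 small RNA libraries were not used. Values are of the unit signal: the deposited low values are whole multiples of 1 step per library, which shows gene read counts divided by a size factor by the authors. Whole reads were recovered for 24 of 32 libraries (tolerance 0.1 reads, met by at least 93.9% of a library's values above 0). The submitters' processing notes name Bowtie and the builds GRCm38 and mm9, without versions or roles; the counter, annotation and normalisation are not given in the sources used here. A line without a gene name in the EpiLC table (at most 0.006% of a library) was left out.

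Values were analysed as log2(value + 1) with limma 3.58.1 (R 4.3.3; intensity trend; genes with a mean of at least 1; all 80 members passed), and Benjamini-Hochberg adjustment ran over all genes of a fit. Courses were natural splines of the square root of time (3 degrees of freedom for EpiLC, 2 for EB), tested jointly, with direction from the fitted ends; 6 and 4 residual degrees of freedom were left. Dox (4 pairs) and knockout (6 pairs) fits had hour as a block; the hour is a shared time and medium, and hours stand in for replicates. Fold changes on this scale understate those of low genes. Comparisons of single libraries carry no test; their intervals are exact conditional binomial intervals on recovered reads. edgeR 4.0.16 was run as an alternative on recovered reads. Fits were also run on simulated data with known changes. The simulated noise was independent with a fixed dispersion, and simulated course changes were steady. These runs therefore do not show how the fits treat peaked courses or effects of a single hour.

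Members, role groups and lists were chosen with earlier results of these data known. Named are, per tested comparison and role, up to 3 called members of largest rise and of largest fall. From each other list, up to 2 called genes per direction are named. The rule for serum/LIF and cESCs was up to 5 past the fold, but all 6 past 1.5-fold in serum/LIF are named. Other members named were chosen after their values were seen. A single member counted throughout is not reported here by name or in 2 of the figures. Of the lists, Snu13 is in the tables under its older name Nhp2l1 and was counted once, and the kinase Srpk3 was not analysed here. Labels do not say that libraries came from separate cultures, so p-values measure the spread between these libraries.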

Additional observations from a re-analysis of the deposited data

How the results depend on the processing

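With 1 library per condition and time, tests rest on smooth courses and on hours as stand-ins for replicates, and depth (5.80 M to 56.02 M reads) limits members with values near 10, such as Srsf12. Of the named members, 17 of 24 kept their call in the knockout under all 13 alternatives, against 1 of 17 along the EpiLC course (Hnrnph3, 18 alternatives), 0 of 4 in EBs (15) and 0 of 1 with Dox (13).

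EpiLC course (23 higher, 3 lower): without the intensity trend 13 were higher, and with a straight line 11 were higher and 1 lower. Leaving out 1 library gave 5 to 27 higher and 1 to 7 lower. Of all genes, 21.7% were called higher without the trend and 11.7% with the straight line, against 25.4% as deposited. Over the libraries left out, 19.3% to 25.9% of all genes were called higher and 18.3% to 25.1% lower. Fitted changes turned round for Sf3a2 (-0.04) and Sf3b4 (-0.19) with a straight line. Over the libraries left out, the change ranged from -0.19 to 1.03 for Sf3b3, from -0.66 to 0.71 for Sf3a2, from -0.95 to 0.84 for Sf3b4 and from -0.38 to 0.82 for Srsf6, lowest without 0 h.

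EB course (3 higher, 1 lower): rescaling to the same total gave 5 higher and 0 lower, median-ratio scaling 1 higher, and no intensity trend 0 lower. Of all genes, 18.0% were called higher and 9.04% lower with the same total. With median-ratio scaling 16.1% were called higher, and without the trend 7.66% lower. Leaving out 1 library gave 1 to 5 higher and 0 to 5 lower, and Hnrnpa1 changes of -0.20 to 1.03.

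Paired comparisons: with no replicate block, so that hours were not paired, Dox had 0 members lower (1 with the block) and the knockout 3 higher (6) and 20 lower (26). Dox had 0 lower with no filter, with no intensity trend and in edgeR on the 24 and 48 h pairs; limma on those pairs called 3 lower (Sf3a2, Sf3b5 and Srsf2, an alternative chosen after seeing the data, as were the edgeR fits of the courses). Of all genes, 1.14% were called lower by that limma fit, 0.219% by edgeR on the same pairs, 0.673% with no filter and none without the trend. Leaving out 1 Dox pair gave 0 to 3 members lower, and up to 3.26% of all genes. The knockout had 3 higher without the intensity trend (Hnrnpul1, Sf3b3 and Tra2a), and 3 to 6 higher over the pairs left out. Of all genes, 16.5% were called higher without the trend. An edgeR fit of the knockout was not run, since whole reads of both libraries were recovered at 48 h alone. The causes were not tested. At 1.5-fold in place of 2-fold, 6 members were higher in serum/LIF with Dox and 1 in all 4 cESC libraries.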
